A study of Mus musculus with 14 samples.

Results

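The galectin family was described by the 6 genes Lgals1, Lgals2, Lgals3, Lgals4, Lgals8 and Lgals9. They were measured by 9 probe sets, chosen because each is annotated to exactly 1 of these symbols, out of 20393 such probe sets for 12394 genes. The family was picked for its pattern over the 4 sample groups, so its levels and differences are given here as a description and were not tested. The study profiled the mouse small intestine on 14 arrays, to follow gene regulation along the axis from crypt to villus. The adult groups were crypts and villi of C57BL/6 mice aged 12 weeks, with 3 arrays each and 1 mouse per array: K12, K21 and K41 for the crypts and V12, V41 and V275 for the villi, in which order values are given. The labels do not say whether K12 and V12, or K41 and V41, came from the same mouse. The fetal groups were the mesenchyme and the endoderm of the intestine at embryonic day 12 (E12), separated after collagenase digestion, with 4 arrays each. The labels give no strain for the fetuses, and no genotype, transgene or treatment for any group. One array of each E12 layer came from a pool of 35 fetuses, and the other 3, numbered 2, 3 and 4, from pools of 10 to 12.

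Galectins are small proteins that bind beta-galactoside sugars, above all the lactosamine repeats on glycoproteins and glycolipids. Prototype members such as Lgals1 and Lgals2 carry a single sugar-binding domain and pair up, the chimera member Lgals3 joins its domain to a tail that lets it form larger assemblies, and tandem-repeat members such as Lgals4, Lgals8 and Lgals9 carry a pair of domains on a single chain. In the gut, Lgals4 is known for binding sulfated glycolipids and carrying proteins to the apical brush border of enterocytes, Lgals3 for the non-raft apical route, and Lgals1 as a product of mesenchymal cells.

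The sequences just upstream of the start sites are shown for Lgals2, Lgals4 and Lgals3, because the signals of these epithelial members differed in their course: Lgals2 and Lgals4 were high from the E12 endoderm on, and Lgals3 in the adult arrays alone. They come from RefSeq on build GRCm38.p6 and cover the 250 bases before each start, read 5' to 3' on the gene's own strand. Capitals mark matches to the motifs searched. RefSeq promoter entries were found for 5 of the 6 members, Lgals1 being the exception.
Lgals2, chr15:78855530-78855779, minus strand: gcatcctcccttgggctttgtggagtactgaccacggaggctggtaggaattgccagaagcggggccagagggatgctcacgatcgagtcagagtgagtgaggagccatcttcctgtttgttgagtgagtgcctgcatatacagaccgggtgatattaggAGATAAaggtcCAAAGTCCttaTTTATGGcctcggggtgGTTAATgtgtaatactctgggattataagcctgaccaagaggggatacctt
Lgals4, chr7:28833544-28833793, plus strand: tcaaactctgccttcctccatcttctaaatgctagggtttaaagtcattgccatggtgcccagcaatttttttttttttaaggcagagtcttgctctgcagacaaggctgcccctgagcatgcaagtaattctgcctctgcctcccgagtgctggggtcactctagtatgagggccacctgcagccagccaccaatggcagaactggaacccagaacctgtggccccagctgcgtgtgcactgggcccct
Lgals3, chr14:47373610-47373859, plus strand: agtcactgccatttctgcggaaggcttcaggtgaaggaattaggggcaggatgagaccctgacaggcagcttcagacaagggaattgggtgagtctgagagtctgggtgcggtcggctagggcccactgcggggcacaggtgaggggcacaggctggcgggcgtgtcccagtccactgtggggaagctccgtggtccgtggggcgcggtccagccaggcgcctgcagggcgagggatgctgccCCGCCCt

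The 7 motifs were searched on both strands. Those of intestinal factors were CAAAGTCC for HNF4, then TTTATNG for CDX proteins, GTTAAT for HNF1 proteins and AGATAA for the GATA factors. The general ones were TATAAA for the box that places the start of transcription, GGGCGG for the GC box bound by Sp1 proteins, and an interferon response element made of a pair of GAAA boxes, 2 bases apart. The Lgals2 window held a GATA match 90 to 85 bases before the start, an HNF4 match at 79 to 72, a CDX match at 68 to 62 and an HNF1 site at 51 to 46. HNF4, CDX, HNF1 and GATA are families of factors known for switching on genes of the gut epithelium. Among all 32851 promoter windows of the same length, 1.2% held the HNF4 letters, 9.8% the CDX letters, 6.4% the HNF1 letters and 10.0% the GATA letters. The motifs were chosen with the Lgals2 sequence in view, so this run of matches is a description only. In the Lgals3 window there was 1 match, a GC box at 7 to 2 bases before the start on the other strand (32.7% of all windows), and in that of Lgals9 an interferon response match at 55 to 46 (3.0%). Neither the Lgals4 nor the Lgals8 window held any of the 7 motifs. The G and C content was 66.0% for Lgals3, 58.4% for Lgals9, 53.6% for Lgals4, 50.8% for Lgals2 and 49.2% for Lgals8, against a median of 52.4% over all windows. By gene order, Lgals2 and Lgals1 lie on chromosome 15 with 3 protein-coding genes between them, and the other 4 members lie on chromosomes 7, 11, 13 and 14.

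All values are log2 signals, on which a step of 1 is a doubling, and a difference is given with its standard error (SE) from a linear model. They came in 2 tables that are not stated to have been normalized together, so levels are compared within a table only. The first table holds the 6 adult arrays and the pair from pools of 35 fetuses, and the second the other 6 E12 arrays. The signal below which the dimmest 30% of all probe sets lay was 5.71 to 5.88 in the arrays of the first table and 4.70 to 4.78 in those of the second. A signal under that level is called dim below, and since such a signal can be mostly background, differences against it are not given as folds. Levels of different probe sets are not comparable. The groups matched their labels: the mean of 6 epithelial markers was 11.12 to 12.15 in the endoderm, crypt and villus arrays and 6.26 to 6.92 in the mesenchyme, and the mean of 9 stromal markers was 9.47 to 10.55 in the mesenchyme and 5.50 to 6.84 elsewhere. In these bulk samples a lower signal from fewer cells of a type and from less RNA per cell cannot be told apart.

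**Figure D1:**
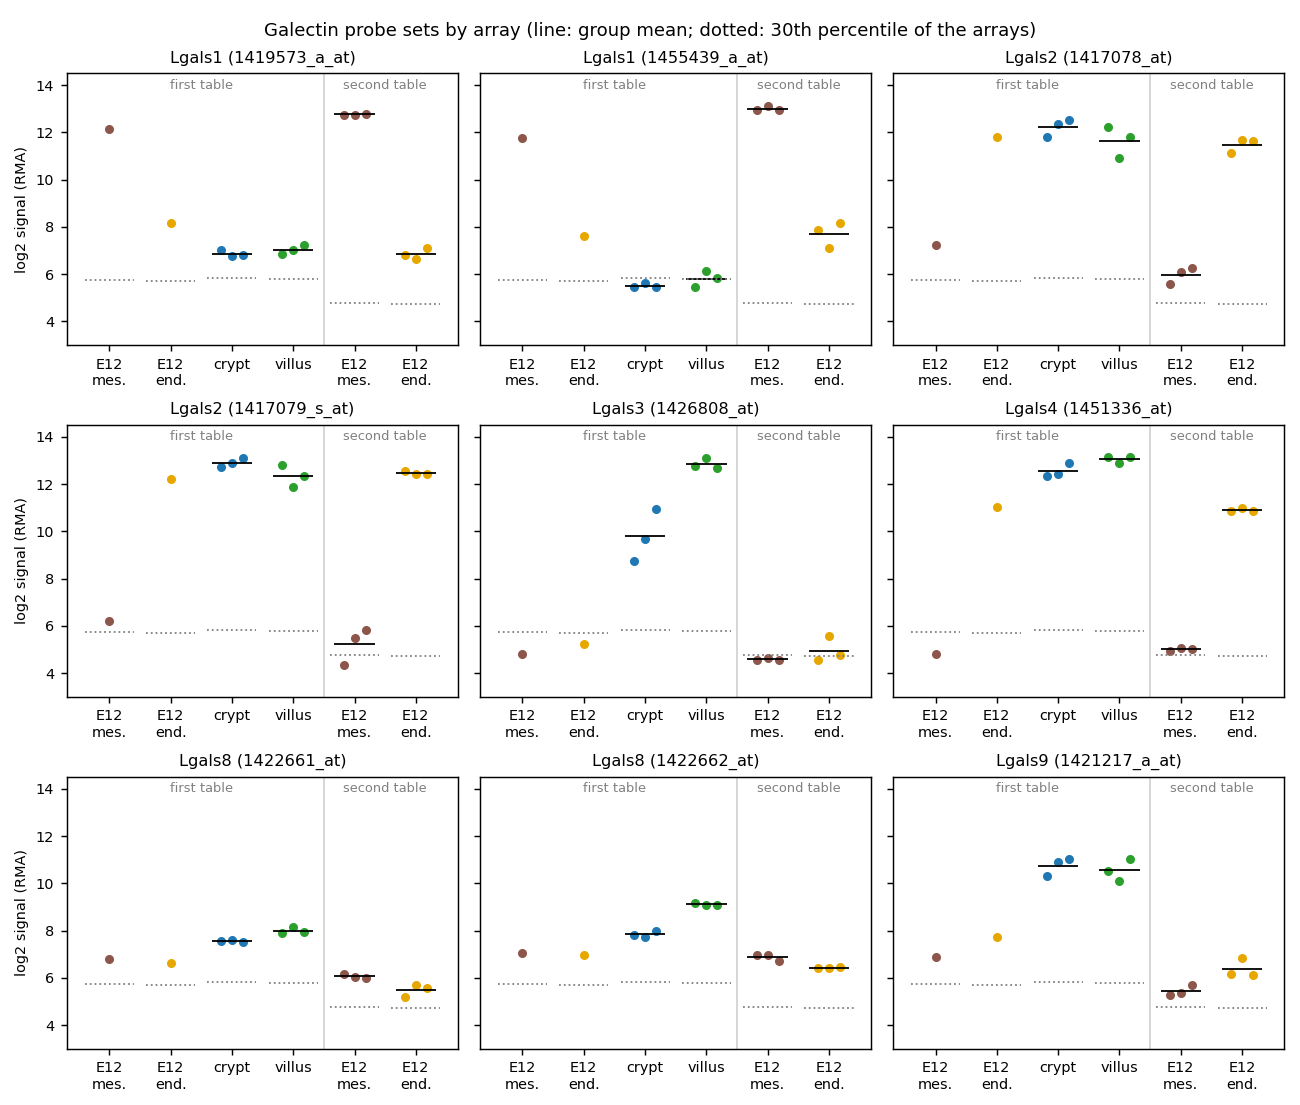
Log2 signal of the 9 galectin probe sets in each of the 14 arrays (points), by group, with the group mean (line) and the 30th percentile of the arrays (dotted), the 2 tables apart. Lgals1 was high in the mesenchyme, Lgals2 and Lgals4 in the endoderm, crypt and villus, and Lgals3 in the crypt and villus.

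Lgals1, the prototype galectin of mesenchymal and many other cells, was the member of the mesenchyme. In the second table, probe set 1419573_a_at read 12.74, 12.75 and 12.78 in the mesenchyme arrays and 6.80, 6.64 and 7.09 in the endoderm arrays. The groups did not overlap, and the endoderm was lower by 60.3-fold (log2 difference -5.91 ± 0.12, SE). Probe set 1455439_a_at gave 12.94, 13.10 and 12.95 in the mesenchyme against 7.85, 7.10 and 8.15 in the endoderm, a 39.3-fold lower level (-5.30 ± 0.25, SE). In the pair of the first table the gap was smaller, with 12.16 in the mesenchyme and 8.15 in the endoderm for 1419573_a_at (-4.01) and -4.18 for 1455439_a_at. The mean of the 9 stromal markers was also less far apart in that pair, at 9.47 and 6.84, than in the second table, at 10.44 to 10.55 in the mesenchyme and 5.50 to 6.00 in the endoderm. The part of stromal cells in the Lgals1 signal of the endoderm was not tested. Col1a1, a collagen chain of stromal cells, read 11.63 in the mesenchyme and 5.16 in the endoderm on average in the second table. It had the widest gap of the stromal markers tested there. Their endoderm means ran from 3.87 for Pdgfrb to 7.76 for Col3a1 and 10.59 for Vim, whose gap was the smallest (-1.61).

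The adult arrays held the lowest Lgals1 signals of the first table. Crypts read 7.01, 6.75 and 6.80 and villi V12 and V275 6.84 and 7.23 (mean 7.02 ± 0.20, SD, n = 3) with 1419573_a_at. The adult groups overlapped (villus minus crypt 0.17 ± 0.14, SE), and both lay under the endoderm array at 8.15, by -1.29 ± 0.20 for the crypt and -1.12 ± 0.20 for the villus (SE). With 1455439_a_at, all 3 crypt arrays and 1 of 3 villus arrays were dim. A processed pseudogene copy of Lgals1 is annotated in RefSeq, and how far it shares these signals was not tested.

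Lgals2, a prototype galectin of the gut epithelium, was high in all epithelial groups from the E12 endoderm on. In the second table, probe set 1417079_s_at read 12.55, 12.44 and 12.45 in the endoderm and 4.34, 5.49 and 5.84 in the mesenchyme. The groups did not overlap (7.26 ± 0.35, SE), and the lowest mesenchyme array was dim. The other probe set, 1417078_at, read 11.14, 11.66 and 11.62 in the endoderm against 5.60, 6.07 and 6.24 in the mesenchyme, where none was dim, a 45.4-fold difference (5.50 ± 0.20, SE). Both probe sets put the mesenchyme arrays in the same order, and the mean of the 6 epithelial markers followed it, at 6.26, 6.77 and 6.92. The part of epithelial cells in the Lgals2 signal of the mesenchyme was not tested. Lgals4 read 4.96, 5.06 and 5.02 in the same arrays.

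In the first table Lgals2 (1417079_s_at) read 12.20 in the endoderm, 12.73, 12.91 and 13.10 in the crypt and 12.83, 11.88 and 12.35 in the villus. The crypt was above the endoderm array by 0.71 ± 0.34 (SE). The villus lay around it (0.15 ± 0.34, SE). Crypt and villus overlapped, with the villus mean lower by -0.56 ± 0.24 (SE), and 1417078_at gave -0.58 ± 0.35 (SE). With 1417078_at the villus mean of 11.64 lay under the endoderm array at 11.80 (-0.16 ± 0.49, SE) and the crypt mean of 12.22 above it (0.42 ± 0.49, SE). The crypt thus had the highest Lgals2 mean with both probe sets, and the order of villus and endoderm differed between them.

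**Figure D2:**
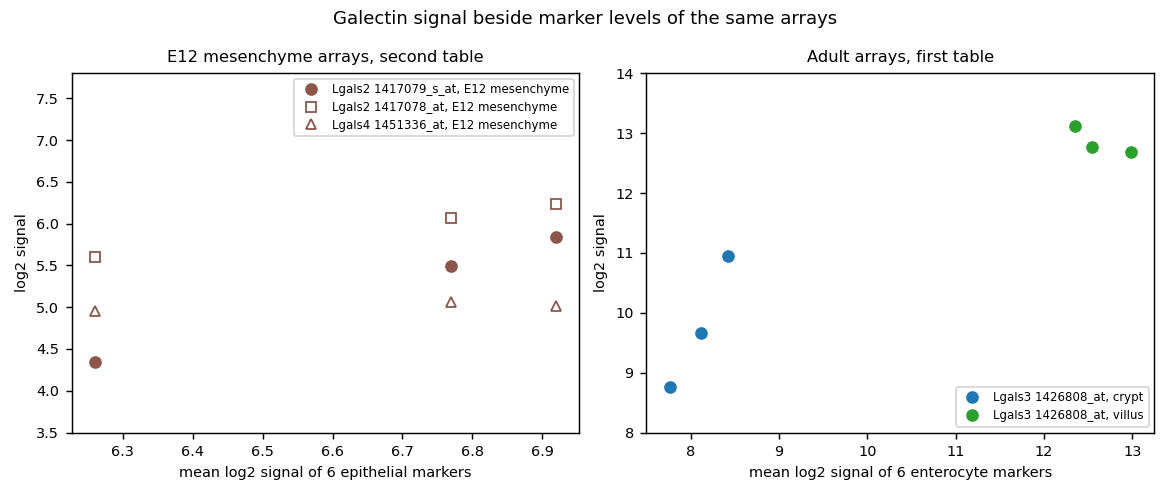
Left, log2 signal of Lgals2 (2 probe sets) and Lgals4 in the 3 E12 mesenchyme arrays of the second table against the mean of 6 epithelial markers; right, Lgals3 in the 6 adult arrays against the mean of 6 enterocyte markers. Lgals2 ran from 4.34 to 5.84 with the marker mean while Lgals4 stayed at 4.96 to 5.06; Lgals3 ran from 8.76 to 10.94 over the crypt arrays.

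Lgals3, the chimera galectin known from macrophages and from absorptive epithelium, was the member with the widest range in the adult gut and the one with no clear signal in the fetus. Probe set 1426808_at was dim in both E12 arrays of the first table, at 4.82 in the mesenchyme and 5.24 in the endoderm. It was also dim in all 3 mesenchyme arrays of the second table (4.54, 4.65 and 4.56) and in 1 of 3 endoderm arrays (4.54, 5.56 and 4.78), so it did not pass the filter on low signal there. Crypts read 8.76, 9.67 and 10.94, a spread wider than in any other member, and villi 12.76, 13.12 and 12.68. The crypt and villus did not overlap, and the villus mean was 8.36-fold higher (3.06 ± 0.50, SE). Against the single endoderm array the crypt was higher by 4.55 ± 0.70 and the villus by 7.61 ± 0.70 on the log2 scale (SE). The levels therefore ranked villus, crypt and then both E12 layers, which were not separated from each other.

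Marker means of some cell types followed the same order of crypt arrays as Lgals3, as did Lgals2, Lgals4 and Lgals9. Those of the other types did not, such as Paneth cells (12.85, 12.87 and 12.70 in K12, K21 and K41) and goblet cells (11.29, 10.97 and 11.35). For 6 markers of enterocytes, the absorptive cells of the villus, the mean was 7.76, 8.12 and 8.42 in crypts K12, K21 and K41. The order was the same for the epithelial markers (11.44, 11.59 and 11.92), the dividing-cell markers (9.10, 9.21 and 9.39) and the B cell markers (6.18, 6.55 and 6.82). In villi V12, V41 and V275 the enterocyte mean was 12.54, 12.35 and 12.99, lowest in V41, where Lgals3 was highest. Lct, lactase, was dim in every crypt array. The mean of 8 myeloid markers was 6.71 to 6.80 in the crypts and 6.18 to 6.56 in the villi, and C1qb, Cd68 and Itgam among them were dim in every adult array. Of the 5 that passed the filter, Lyz2 (-3.44) and Csf1r (-0.57) were lower in the villus, Tyrobp (0.70) was higher, and C1qa (0.12) and Adgre1 (0.14) did not pass (limma, adjusted p under 0.05). Lyz2, a lysozyme, had by far the largest of these differences, and Lyz1, its near copy and a Paneth cell marker, was lower in the villus too (-2.60). The part of villus cells and of myeloid cells in the Lgals3 signals was not tested.

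Lgals4, the tandem-repeat galectin of apical transport, was low in the mesenchyme and high in all epithelial groups, whose means were ordered endoderm, crypt, villus. In the second table probe set 1451336_at read 10.85 and 10.88 in endoderm arrays 2 and 4, with a group mean of 10.91 ± 0.08 (SD, n = 3), against 4.96, 5.06 and 5.02 in the mesenchyme. These groups were far apart (5.90 ± 0.08, SE), and the pair of the first table gave 11.04 against a dim 4.80. The mesenchyme signals of the second table lay little above the dim level, so no fold is given. Crypts read 12.33, 12.43 and 12.89 and villi 13.17, 12.90 and 13.14. The crypt was 2.86-fold above the endoderm array (1.52 ± 0.25, SE) and the villus 4.10-fold (2.04 ± 0.25, SE). The villus and crypt did not overlap, but only just, with the highest crypt at 12.89 and the lowest villus at 12.90, and the difference was 1.43-fold (0.52 ± 0.18, SE). When the table was quantile normalized again it came to 0.27. In some mouse strains Lgals6, a near copy of Lgals4, lies beside it. Lgals6 has no probe set of its own here, so in mice that carry it a shared signal cannot be told apart. The RefSeq gene order used here placed no Lgals6, with 0 protein-coding genes between Lgals4 and Lgals7. The labels name a strain, C57BL/6, for the adult mice only, and whether any of the mice carry Lgals6 was not tested.

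Lgals8, a tandem-repeat galectin known for marking damaged vesicles for autophagy, read above the dim level in all arrays, with the villus highest. Probe set 1422662_at read 7.06 in the mesenchyme and 6.96 in the endoderm of the first table, 7.82 and 7.71 in crypts K12 and K21, whose group mean was 7.84 ± 0.15 (SD, n = 3), and 9.15, 9.09 and 9.07 in the villi. No 2 of the endoderm, crypt and villus groups overlapped: the villus was 2.40-fold above the crypt (1.26 ± 0.12, SE) and 4.42-fold above the endoderm (2.14 ± 0.17, SE). The second probe set, 1422661_at, had the same order with a smaller step, at 7.54, 7.59 and 7.50 in the crypts and 7.89, 8.14 and 7.93 in the villi (0.44 ± 0.12, SE). It put the crypt above the endoderm array by 0.90 ± 0.17 and 1422662_at by 0.88 ± 0.17 (SE). The probe sets thus gave the same crypt to endoderm step and unequal villus to crypt steps. Between the E12 layers of the second table, 1422662_at read 6.95, 6.95 and 6.69 in the mesenchyme and 6.40, 6.43 and 6.44 in the endoderm. The endoderm was lower by -0.44 ± 0.10, and by -0.57 ± 0.14 with 1422661_at (SE), while the pair of the first table differed by -0.10 and -0.14.

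Lgals9, a tandem-repeat galectin known as a ligand of the T cell receptor Havcr2, was an adult member that did not separate crypt from villus. Probe set 1421217_a_at read 10.32, 10.89 and 11.03 in the crypts and 10.54, 10.11 and 11.01 in the villi. These groups overlapped (-0.19 ± 0.27, SE). Both lay above the endoderm array at 7.72, the crypt 8.14-fold (3.02 ± 0.39, SE) and the villus 7.14-fold (2.83 ± 0.39, SE). In the second table the endoderm read 6.15, 6.82 and 6.10 and the mesenchyme 5.29, 5.35 and 5.68. The layers did not overlap, with the endoderm 1.89-fold higher (0.92 ± 0.21, SE), and the pair of the first table differed by 0.82.

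**Figure D3:**
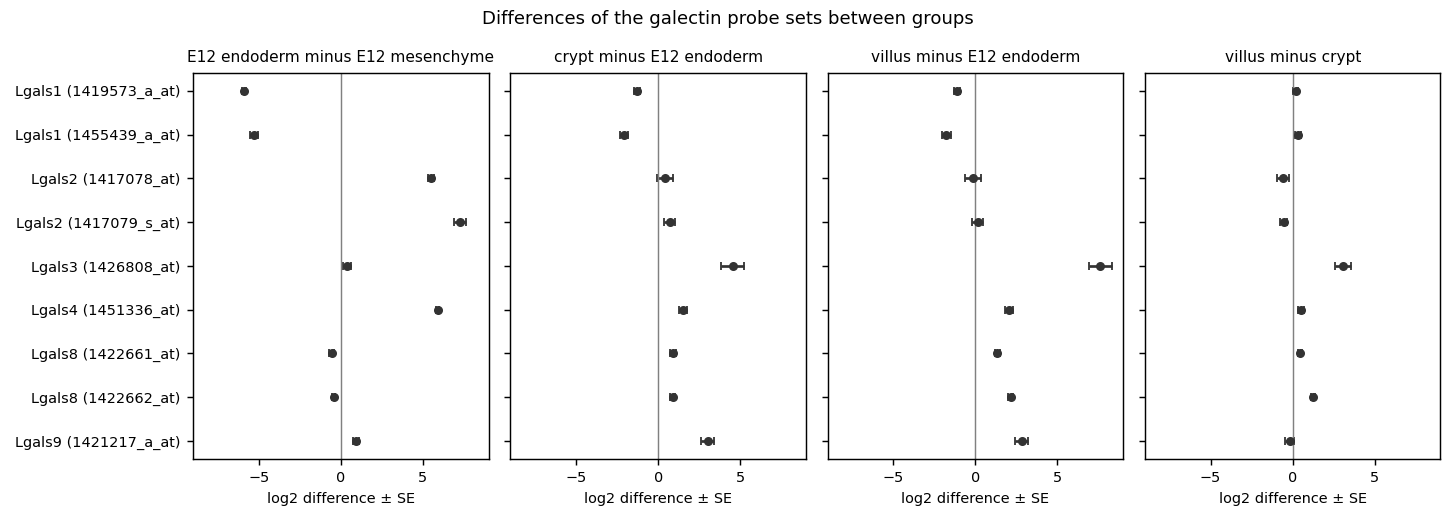
Log2 difference ± SE of each galectin probe set in the 4 comparisons, from limma; the E12 layers are from the second table (3 arrays each) and the others from the first (3 adult arrays a group, 1 endoderm array). The points run from -5.91 for Lgals1 between the E12 layers to 7.61 for Lgals3 between villus and endoderm.

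Counted over the family, 3 of 6 members had villus arrays wholly above the crypt arrays (Lgals3, Lgals4 and Lgals8), none wholly below, and 3 overlapped. Over all 9962 genes tested, the arrays of the groups did not overlap for 47.8%, 24.3% being higher in the villus and 23.5% lower. Between the E12 layers, 5 members passed the filter, 3 of them higher in the endoderm (Lgals2, Lgals4 and Lgals9) and 2 higher in the mesenchyme (Lgals1 and Lgals8), where 62.0% of 9442 genes did not overlap, 32.9% higher in the endoderm and 29.1% lower. Against the single endoderm array, all crypt arrays were above it for 5 members and below it for Lgals1 (80.7% of 10082 genes lay to one side, 41.8% above and 38.9% below). The villus arrays were above it for 4 members, below it for Lgals1 and on both sides for Lgals2 (84.8% of genes to one side, 47.9% above and 36.9% below). Since the members were picked on these groups, nothing is read from these counts. The comparisons with the endoderm share its 1 array, and those of the adult groups share the crypt and villus arrays.

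For each member the genes most like it were ranked by Pearson r over the 8 arrays of the first table, among 10076 genes, and r over the 6 arrays of the second table is given beside it as a description. The points share arrays and fall into the 4 groups. Lgals1 was followed most closely by Anxa6, a membrane-binding annexin (0.998, then 1.00), Efs (0.997, then 0.99) and Ndn (0.997, then 1.00). Nearest to Lgals2 was Klf5, a transcription factor of dividing gut epithelium (0.996, then 1.00), before Ascl2, a transcription factor of crypt stem cells (0.991, then 0.98), and the desmosome gene Pkp2 (0.984, then 0.99). Ascl2 spanned only 6.79 to 7.34 in its group means, so its r stands for a small range. Nearest to Lgals4 were B4galnt2, a glycosyltransferase (0.998, then 1.00), the keratin Krt8 (0.994, then 1.00) and Lypd8 (0.991, then 1.00). For these 3 members, all with wide gaps between the E12 layers, the same genes had r of 0.98 to 1.00 in the second table.

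For the members with little or no gap between the E12 layers the second table gave lower values. Lgals3 ran with Prrg2 (0.998, then 0.43), Ppp1r14d (0.997, then 0.34) and AW112010 (0.997, then 0.45), all highest in the villus. Map3k6 (0.993, then 0.62), Klf4 (0.993, then 0.04) and Tmem106a (0.992, then -0.48) were closest to Lgals8. Klf4, a transcription factor of differentiated gut epithelium, read 8.68 in the crypt and 11.48 in the villus on average. Lgals9 had Gmppa (0.986, then 0.28), Isoc2b (0.985, then 0.59) and Smagp (0.980, then 0.87) beside it. Within the family, Lgals2 and Lgals4 had r of 0.96 over the first table and 0.99 over the second, Lgals3 and Lgals8 0.96 and -0.45, and Lgals1 and Lgals4 -0.99 and -0.99.

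Of 6 other galectin-named genes looked for, 4 were measured. Lgals3bp, a secreted glycoprotein that binds galectins, read 8.97, 9.18 and 9.04 in the endoderm and 6.28, 5.92 and 6.08 in the mesenchyme of the second table. The endoderm was 7.84-fold higher (2.97 ± 0.12, SE; limma adjusted p = 1.7e-07). In the adult it read 9.47, 9.77 and 9.95 in the crypts and 9.86, 10.52 and 11.10 in the villi, an overlap, with a difference of 0.76 that missed the threshold (adjusted p = 0.096). Without V12 it passed, at 1.08 (adjusted p = 0.014). Lgalsl, a galectin-like protein, read 7.81, 8.27 and 8.47 in the crypts and 8.63, 10.90 and 9.99 in the villi with probe set 1424318_at. Its second probe set, 1451313_a_at, read 4.80, 5.65 and 6.58 against 6.92, 9.61 and 7.64. Crypts and villi did not overlap with either probe set, and with the first probe set the villi were higher by 1.66 ± 0.51 (SE, limma adjusted p = 0.043). That call was lost without any 1 of K12, K21, K41, V41 or V275, with adjusted p-values of 0.15, 0.11, 0.08, 0.058 and 0.1. Lgals7, known from stratified epithelium, had group means of 5.71 to 6.34 in the first table and 4.75 to 4.76 in the second, near the dim level, and no comparison passed. Lgals12, known from fat cells, was dim in every E12 array of the second table. In the first table it was lower in the villus by -0.34 with probe set 1417687_at (adjusted p = 0.096), and by -0.77 with the median of its 2 probe sets (adjusted p = 0.0081), of which the other was dim in every adult array.

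The sugars that galectins bind depend on the enzymes that build and cap lactosamine chains. Followed over all genes tested were 4 lists: binding partners, chain synthesis, chain capping, and apical sorting with brush border cargo. The synthesis and capping lists also hold genes of glycan cores or glycolipids, such as Fut8 and B3gnt5. Their counts are therefore no measure of lactosamine chains alone. The apical list shares Lct, Anpep and Vil1 with the enterocyte markers, so its differences are not separate from theirs. Between villus and crypt, 32.0% of the 9962 genes passed limma's test at an adjusted p under 0.05, 16.9% higher in the villus and 15.0% lower. Of 20 partners tested, 6 were higher in the villus, 2 lower and 12 did not pass, with a median difference of 0.18 against 0.00 over all genes. Ptprc, the leukocyte phosphatase CD45, was 3.43-fold higher in the villus (1.78 ± 0.33, SE; adjusted p = 0.0062), and Cd44, a hyaluronan receptor, was lower there (-1.67 ± 0.24, SE; adjusted p = 0.0023). T cell markers moved with Ptprc: 6 of the 6 tested were higher in the villus, and the mean of 7 was 6.20 to 6.39 in the crypts and 7.94 to 8.79 in the villi. Cd2 was dim in every adult array, and the part of T cells in the Ptprc signal was not tested. The count of partners called fell from 8 to 5 without K12 and to 4 without K21, while that over all genes fell from 3183 to 1974 without K21. With the shared numbers 12 and 41 as a replicate block, 1260 genes and 1 partner passed, and Ptprc did not (adjusted p = 0.054). The crypt and villus arrays without a shared number add nothing to the differences in that fit.

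Of 16 chain synthesis enzymes, 5 were higher in the villus, 4 lower and 7 did not pass (median 0.24). B4galt6, a galactosyltransferase, was 3.88-fold higher in the villus (1.96 ± 0.21, SE; adjusted p = 0.00064). C1galt1c1, the chaperone of core 1 O-glycan synthesis, was lower there (-1.53 ± 0.14, SE; adjusted p = 0.00039). Among 10 capping enzymes, 2 were higher, 3 lower and 5 did not pass (median -0.07). St3gal4, a sialyltransferase, was 4.51-fold higher in the villus (2.17 ± 0.32, SE; adjusted p = 0.0023), and Fut8, which adds the core fucose of N-glycans, was lower (-1.72 ± 0.36, SE; adjusted p = 0.0094). Without K21 the synthesis count fell from 9 to 4. The capping count fell from 5 to 3 without K12 or V12 and to 2 without K21 or V275. With the replicate block 2 synthesis genes and 1 capping gene passed, and Fut8 did not (adjusted p = 0.054). Paneth cell markers (4 of 4, median -4.45) and dividing-cell markers (4 of 5, median -1.66) were lower in the villus, and their part in the enzyme differences was not tested. In the apical list, 9 of 14 were higher in the villus and none lower (median 2.14), led by Lct (6.41 ± 0.46, SE; adjusted p = 0.00018), which was dim in the crypts, and by Treh, trehalase, at 25.9-fold (4.69 ± 0.14, SE; adjusted p = 3.6e-06).

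Between the E12 layers 53.1% of 9442 genes passed, 27.7% higher in the endoderm and 25.4% lower. Of 19 partners, 3 were higher in the endoderm, 7 in the mesenchyme and 9 did not pass (median -0.08 against 0.03 over all genes). Ncam1, a neural adhesion molecule, was lower in the endoderm (-5.51 ± 0.14, SE; adjusted p = 2.1e-08), as was the semaphorin receptor Nrp1 (-4.73 ± 0.12, SE; adjusted p = 2.4e-08). Markers of other mesenchymal-layer cells were lower there as well: 4 of 4 neural (Tubb3, -4.60), 6 of 6 endothelial (Kdr, -3.79), 6 of 6 smooth muscle and 8 of 8 stromal ones. Their part in the differences of partners and enzymes was not tested. The 15 synthesis enzymes split into 5 higher, 5 lower and 5 not passing (median 0.04). Their named members were B3gnt2, which extends lactosamine chains, at 1.36 ± 0.16 (SE, adjusted p = 0.00016), and B3gnt5, of the lacto-series glycolipids, at -1.10 ± 0.12 (SE, adjusted p = 8.1e-05). Of 10 capping enzymes, 1 was higher in the endoderm, 8 lower and 1 did not pass (median -0.90). The sialyltransferase St3gal2 was lower in the endoderm by -2.91 ± 0.17 (SE, adjusted p = 2.1e-06) and Fut8 by -2.63 ± 0.11 (SE, adjusted p = 2.8e-07). With a stricter filter at the 50th percentile the capping count was 4. Of 10 apical genes, 7 were higher in the endoderm and none lower (median 2.57), with the actin bundler Vil1 at 5.55 ± 0.16 (SE, adjusted p = 3.6e-08) and Mal2, of apical transport, at 4.22 ± 0.20 (SE, adjusted p = 4.8e-07).

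**Figure D4:**
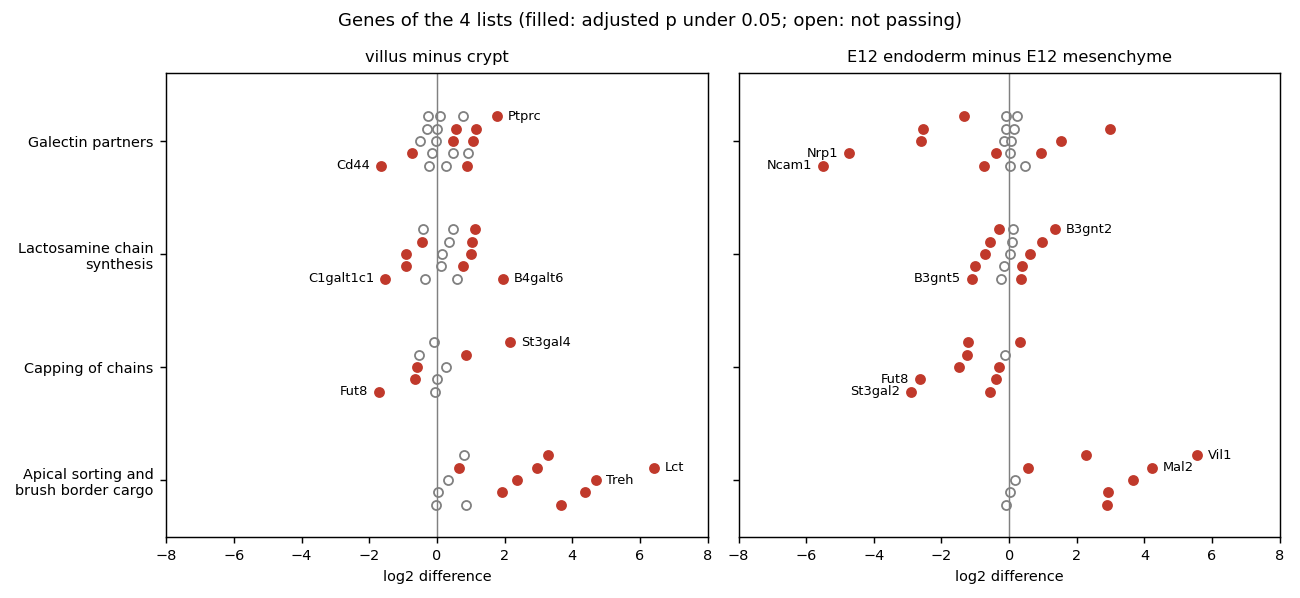
Log2 difference of each gene tested in the 4 lists, villus minus crypt (left) and E12 endoderm minus E12 mesenchyme (right); filled points had a limma adjusted p under 0.05. The medians of the apical list were 2.14 and 2.57, and those of the capping list were -0.07 and -0.90.

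The comparisons of the adult epithelium with the endoderm rest on 1 endoderm array, which is assumed to vary like the adult arrays. From endoderm to crypt, 23.3% of 10082 genes passed, 8.20% higher in the crypt and 15.1% lower. Of 20 partners, 4 were higher in the crypt, 3 lower and 13 did not pass (median 0.04 against 0.05). Fn1, fibronectin, was lower (-3.30 ± 0.22, SE; adjusted p = 0.00016) and Cd44 higher (2.52 ± 0.35, SE; adjusted p = 0.0026), against a dim 5.17 in the endoderm. For the synthesis enzymes the counts were 4 higher, 1 lower and 11 not passing (median 0.40), with C1galt1c1 at 2.09 ± 0.20 (SE, adjusted p = 0.00056) and B3gnt5 at -2.44 ± 0.19 (SE, adjusted p = 0.0003). Capping enzymes gave 3 higher, 1 lower and 7 not passing (median 0.43). St3gal4 was above the endoderm array (4.53 ± 0.45, SE; adjusted p = 0.00069), as was Fut8 (3.44 ± 0.51, SE; adjusted p = 0.0034). Their signals in that array, 5.89 and 6.02, lay little above its dim level of 5.71, so no folds are given. Of 14 apical genes 3 were higher and 11 did not pass (median 0.39), with Anxa13, an annexin of apical transport, at 2.90 ± 0.46 (SE, adjusted p = 0.0045) and Vil1 at 1.53 ± 0.37 (SE, adjusted p = 0.023). Paneth (4 of 4) and goblet cell markers (6 of 6) were higher in the crypt than in the endoderm array and dividing-cell markers (4 of 5) lower, and their part in these differences was not tested. Without K21, Vil1 missed the threshold (adjusted p = 0.072), and the counts fell from 2348 to 1357 over all genes, from 7 to 4 for the partners and from 5 to 3 for synthesis.

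From endoderm to villus, 39.1% of the same genes passed, 17.0% higher in the villus and 22.1% lower. The partners gave 4 higher, 4 lower and 12 not passing (median 0.51 against 0.13), with Ptprc at 3.27 ± 0.47 (SE, adjusted p = 0.0013) against a dim 5.07, where 6 of 6 T cell markers were higher too, and Fn1 at -3.22 ± 0.22 (SE, adjusted p = 7.4e-05). Of the synthesis enzymes, 5 were higher, 1 lower and 10 did not pass (median 0.61). B3gnt3, of mucin-type chains, was 5.94-fold higher in the villus (2.57 ± 0.35, SE; adjusted p = 0.001), and B3gnt5 was lower (-2.89 ± 0.19, SE; adjusted p = 6.2e-05). For capping, 3 were higher, 1 lower and 7 did not pass (median 0.35), among them St3gal4 at 6.70 ± 0.45 (SE, adjusted p = 7.4e-05). Fut8 was at 1.72 ± 0.51 (SE, adjusted p = 0.03), which missed the threshold without V275 (adjusted p = 0.063), where the capping count fell from 4 to 2. In the apical list 10 of 14 were higher and none lower (median 3.22), with Treh at 5.68 ± 0.20 (SE, adjusted p = 1.4e-05) and Lct at 6.94 ± 0.66 (SE, adjusted p = 0.00021), both against an array where they were dim. Enterocyte (6 of 6), goblet cell (5 of 6) and Paneth cell markers (4 of 4) were higher in the villus and dividing-cell markers (5 of 5) lower, and their part in these differences was not tested. The Paneth count depended on the probe sets: the Lyz1 difference was 6.35, but 0.64 without cross-hybridizing probe sets, where its call was lost.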

How the data were processed

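Total RNA was hybridized to 1-colour mouse expression arrays with 22690 probe sets. The values deposited by the authors are log2 signals made with RMA (background correction, normalization between arrays and 1 summary per probe set), per the submitters' processing notes; its version and which arrays were normalized together are not stated there. The 2 tables were analysed apart, and precision is limited by how few arrays there are, among other things. RefSeq and platform tables named 20393 probe sets by 1 symbol; 691 with several were left out. Of several probe sets of a gene, the brightest on average in the fitted arrays stood for it. Genes above the table's 30th percentile in at least 3 arrays were tested with limma 3.58.1 (R 4.3.3; lmFit, eBayes, Benjamini-Hochberg over all genes tested), the E12 layers on the 6 arrays of the second table, villus against crypt on the 6 adult arrays, and both adult groups against the endoderm on all 8 arrays of the first.

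The SE of a difference of the 6 members comes from the same model fitted over all probe sets without the filter, and that of genes given with an adjusted p from the fit over genes. Groups came from the sample titles. The labels do not say that the pools are of separate litters, so p-values measure the spread between these samples. Members and lists were chosen with earlier results of these data known. Named were all members, other galectin-named genes, per list and comparison the 2 called genes with the largest difference, the 3 genes most like each member, and marker lists. Deviations of E12 samples of the same number had r of 0.21, 0.23 and 0.11 over 9442 genes. Between samples of different numbers r was -0.30 to 0.13. All same-number values were above the criterion of 0.1 set for pairing. The E12 values given nevertheless come from the fit without pairs, so their SEs and p-values leave out any pairing. The fit with the numbers as a block of pairs moved no count by over 1.5 times. In a simulation, independent normal noise was drawn for each gene, and a small share of genes was changed by 2-fold or 4-fold. Far larger shares were called in the real data, so the simulated rates need not hold there. On the simulated data 64.0% of the 2-fold changes and 99.0% of the 4-fold ones were found for villus against crypt, and 98.0% and 100.0% for the E12 layers. Against the single endoderm array, 21.0% and 96.0% were recovered for the crypt and 20.0% and 90.0% for the villus. False calls made up 3.6% of calls for villus against crypt, 5.7% for the E12 layers, 9.3% for crypt against endoderm and 1.8% for villus against endoderm. At most 8 values of 22690 in the first table and 670 in the second were identical between any 2 arrays. Alternatives were the normalization, the filter, the probe set rule, cross-hybridizing probe sets, the eBayes prior, the replicate block, all 8 E12 arrays together and each array left out.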

Additional observations from a re-analysis of the deposited data

How the results depend on the processing

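Where a result changed with the processing, the cause was not tested, except that a stricter filter tests fewer genes. No called difference of a named gene changed sign under any alternative run. Differences of the members were not tested, and small ones did change sign. With 1 array left out, Lgals9 ran from -0.42 to 0.03 for villus minus crypt and Lgals2 from -0.08 to 0.39 for villus minus endoderm. Among member differences, 261 alternative values moved by less and 15 by more than 1 residual SD. After a second quantile normalization, villus minus crypt was 0.27 for Lgals4 and 1.13 for Lgals8, crypt minus endoderm 1.80 for Lgals4, and villus minus endoderm -0.94 for Lgals1. With the median of the probe sets, Lgals8 was 0.85 (villus minus crypt) and 1.74 (villus minus endoderm), Lgals1 -1.68 (crypt minus endoderm) and -1.45 (villus minus endoderm), Lgals2 6.38 between the E12 layers, and 2 capping genes passed for villus against endoderm. Without cross-hybridizing probe sets, Lgals2 was 5.50 between the E12 layers. With all 8 E12 arrays and the table as a block Lgals4 was 5.98; the first table's pair alone gave -4.18 for Lgals1, 6.00 for Lgals2, 6.23 for Lgals4 and -0.10 for Lgals8. The 50th percentile filter left 4 capping genes between the E12 layers. Among uncalled other galectins, Lgals7 turned to 0.03 on quantile normalization and Lgalsl to 0.05 on the median of probe sets between the E12 layers, and Lgals3bp ran from -0.06 to 0.18 for crypt against endoderm, below 0 without K41. For the adult arrays the numbers 12 and 41 are shared by crypt and villus (r of 0.16 and 0.07 between their deviations), which does not settle whether they mark the same mouse, so they were not taken as pairs; with the replicate block 1260 genes, 1 partner, 2 synthesis and 1 capping gene passed, and Ptprc and Fut8 (adjusted p = 0.054 each) and Lgalsl (0.073) missed the threshold. The paired fit moved no other list count by over 1.5 times, in the adult or the E12 comparison, and no call of a named gene between the E12 layers. Of the alternative tests of named genes, 852 kept their direction and their side of the threshold, 39 lost the call, 5 gained one and 3 uncalled values turned sign. The deposited signals carry no detection call, so how far dim signals lie above background is not known here. With 1 array left out at a time, for villus minus crypt the calls numbered 1974 to 3142 over all genes, 4 to 9 partners, 4 to 8 synthesis, 2 to 6 capping, 8 to 10 apical; log2 differences were 0.07 to 0.26 for Lgals1, -0.80 to -0.32 for Lgals2, 2.55 to 3.64 for Lgals3, 0.41 to 0.69 for Lgals4, 1.19 to 1.34 for Lgals8, -0.42 to 0.03 for Lgals9. Likewise, for the E12 layers the calls numbered 4260 to 5242 over all genes, 9 to 11 partners, 7 to 10 synthesis, 6 to 9 capping, 7 apical; log2 differences were -5.52 to -5.00 for Lgals1, 6.82 to 7.57 for Lgals2, 0.08 to 0.59 for Lgals3, 5.85 to 5.93 for Lgals4, -0.53 to -0.40 for Lgals8, 0.69 to 1.04 for Lgals9. With 1 array left out at a time, for crypt minus endoderm the calls numbered 1357 to 2342 over all genes, 4 to 7 partners, 3 to 5 synthesis, 4 capping, 2 to 4 apical; log2 differences were -1.37 to -1.24 for Lgals1, 0.62 to 0.80 for Lgals2, 3.97 to 5.06 for Lgals3, 1.35 to 1.63 for Lgals4, 0.81 to 0.95 for Lgals8, 2.88 to 3.24 for Lgals9. Likewise, for villus minus endoderm the calls numbered 3450 to 3949 over all genes, 8 to 9 partners, 6 to 9 synthesis, 2 to 4 capping, 9 to 10 apical; log2 differences were -1.23 to -1.03 for Lgals1, -0.08 to 0.39 for Lgals2, 7.48 to 7.70 for Lgals3, 1.99 to 2.12 for Lgals4, 2.12 to 2.16 for Lgals8, 2.61 to 3.06 for Lgals9.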
